A study of Mus musculus with 2 samples.

Results

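Krüppel-like factors (Klf proteins) are transcription factors that share a C-terminal block of zinc fingers, which binds GC-rich and CACCC sequences, and differ in the N-terminal part that activates or represses. In mouse embryonic stem (ES) cells, Klf2, Klf4 and Klf5 bind many of the same enhancers as Oct4, Sox2 and Nanog and share the task of keeping cells self-renewing. Klf4 responds to leukaemia inhibitory factor (LIF) through STAT3, and Klf2 depends on Oct4. Members outside this trio act in other settings: Klf3 as a repressor with CtBP, Klf9 and Klf13 as repressors with Sin3a, Klf7 in neurons, and Klf15 in hormone-controlled metabolism.

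The genes described here are the 10 family members Klf2, Klf3, Klf4, Klf5, Klf6, Klf7, Klf9, Klf10, Klf13 and Klf15. They were taken by the gene name in the scanner files, which gave 18 of the 41174 gene probes on the array, and they were chosen with their day 6 and day 0 values known. Their differences are therefore a description and carry no test. All 18 probes were spotted once per array. Of these, 17 were well above background on both arrays, called measured below, and 1 (for Klf13) on neither, so every member had at least 1 measured probe and no fold change of a member is a bound.

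Total RNA was measured on 1-colour Agilent arrays in the mouse ES cell line R1, with 1 array from day 6 embryoid body cells, described by the labels as neural precursors, and 1 array from undifferentiated day 0 ES cells. Embryoid bodies are cell aggregates, here formed during direct neural differentiation. The day 0 cells grew on mitotically inactive fibroblast feeders with 15% serum and LIF at 1000 U/ml. Whether LIF, serum or feeders were present on day 6, and how feeders were removed, the sources used here do not say, so medium, feeders, aggregation and differentiation cannot be told apart. Both samples come from 1 cell line, each group had 1 array, and no difference has a replicate check. In bulk RNA, fewer cells of a type and less RNA per cell cannot be told apart.

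Across the whole array, 26882 probes on day 6 and 25227 on day 0 were well above background, of the 41043 with a value on both arrays. Marker genes were read beside the culture labels. Their lists were drawn up with earlier results of these arrays known, so the counts describe the samples and are no check of the labels. As background for all marker counts, 20.1% of all genes tested were lower by 2-fold or more and 17.8% higher. Of the ES cell markers, 7 of 7 measured were at least 2-fold lower on day 6, and the intensity of Pou5f1 (Oct4) was 302 on day 6, against 41679 on day 0. Of 8 neural progenitor markers, 6 were higher by 2-fold or more, while Nes, which encodes nestin, read 49114 on day 6 and 33271 on day 0. Of 7 neuronal markers, 6 were higher by 2-fold or more.

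The probe sequences of the members that differed most are shown because each intensity reports only the RNA that pairs with its 60 bases, and because the Klf2 pair gave unlike values. They are the array's own probes, written 5′ to 3′ from the scanner files, and capitals mark runs of at least 5 G or C. Positions are in the build named in the file headers (mm7). "Upstream" and "downstream" give the order of a gene's probes along its own strand. The Klf2 probes lie on the plus strand at chr8:70842757-70842816 (upstream) and chr8:70844133-70844192 (downstream), 1316 bases apart. The Klf4 probe lies on the minus strand at chr4:55541780-55541839. Those of Klf9 lie on the plus strand at chr19:22862974-22863033 and chr19:22863775-22863834.
Klf2 upstream probe: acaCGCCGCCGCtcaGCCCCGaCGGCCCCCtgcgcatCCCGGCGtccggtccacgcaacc
Klf2 downstream probe: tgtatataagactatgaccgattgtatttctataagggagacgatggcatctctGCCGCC
Klf4 probe: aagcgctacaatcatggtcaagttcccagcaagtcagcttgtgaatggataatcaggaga
Klf9 upstream probe: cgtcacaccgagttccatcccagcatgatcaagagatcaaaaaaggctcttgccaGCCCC
Klf9 downstream probe: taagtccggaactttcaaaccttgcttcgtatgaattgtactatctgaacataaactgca

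The Klf5 and Klf13 probes for the RefSeq mRNAs (NM_009769 and NM_021366) are shown for another feature. Capitals mark the codon pattern of the short conserved linker between neighbouring zinc fingers: 16 letters, with codons that open with AC, GG, GA, A and CC, and then T. It was searched on the probe strand and chosen after the sequences were seen. The pattern was present in 2 of the 18 member probes and in 35 of all 41174 gene probes (0.0850%). The Klf5 probe maps to a 9733-base interval of the plus strand (chr14:93704580-93714312), so its 60 bases lie in separate pieces. The second Klf5 probe, for the cDNA BC006646, lies inside that interval at chr14:93706061-93706120. The Klf13 probe spans 46229 bases of the minus strand, chr7:59641560-59687788.
Klf5 mRNA probe: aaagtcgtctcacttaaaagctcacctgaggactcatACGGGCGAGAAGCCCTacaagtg
Klf5 cDNA probe: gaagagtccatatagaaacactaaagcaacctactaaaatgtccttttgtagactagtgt
Klf13 mRNA probe: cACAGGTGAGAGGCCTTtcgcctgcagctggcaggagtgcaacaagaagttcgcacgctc

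By their brightest probe, 6 of the 10 genes were lower on day 6 than on day 0 by 2-fold or more (Klf2, Klf3, Klf4, Klf5, Klf6 and Klf9) and 0 were higher by that much. Klf2, Klf4, Klf5 and Klf9 were also at least 4-fold lower, while Klf7, Klf10, Klf13 and Klf15 stayed within 2-fold. By every measured probe, 4 genes were lower by 2-fold or more: Klf4, Klf5, Klf6 and Klf9. The median log2 difference of the 10 genes was -1.09, against -0.12 over all 14967 genes tested. Of all genes, 20.1% were lower by 2-fold or more and 17.8% higher (37.8% either way), and at 4-fold 8.35% were lower and 7.35% higher (15.7% either way). Without scaling between the arrays, the share of higher genes among all those at least 2-fold apart was 57.8%, against 47.0% with the main scaling. Among the 17 measured member probes, 9 were lower by 2-fold or more and 0 higher, where 18.1% of all 28378 tested probes were lower and 17.5% higher (35.7% either way). Since this contrast was used to choose the genes, these shares are given only as the background. Differences are day 6 minus day 0 after the 75th percentile of each array was subtracted on the log2 scale. Each is given with the SD that follows from the scanner software's own error, which holds no variation between cultures.

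**Figure D1:**
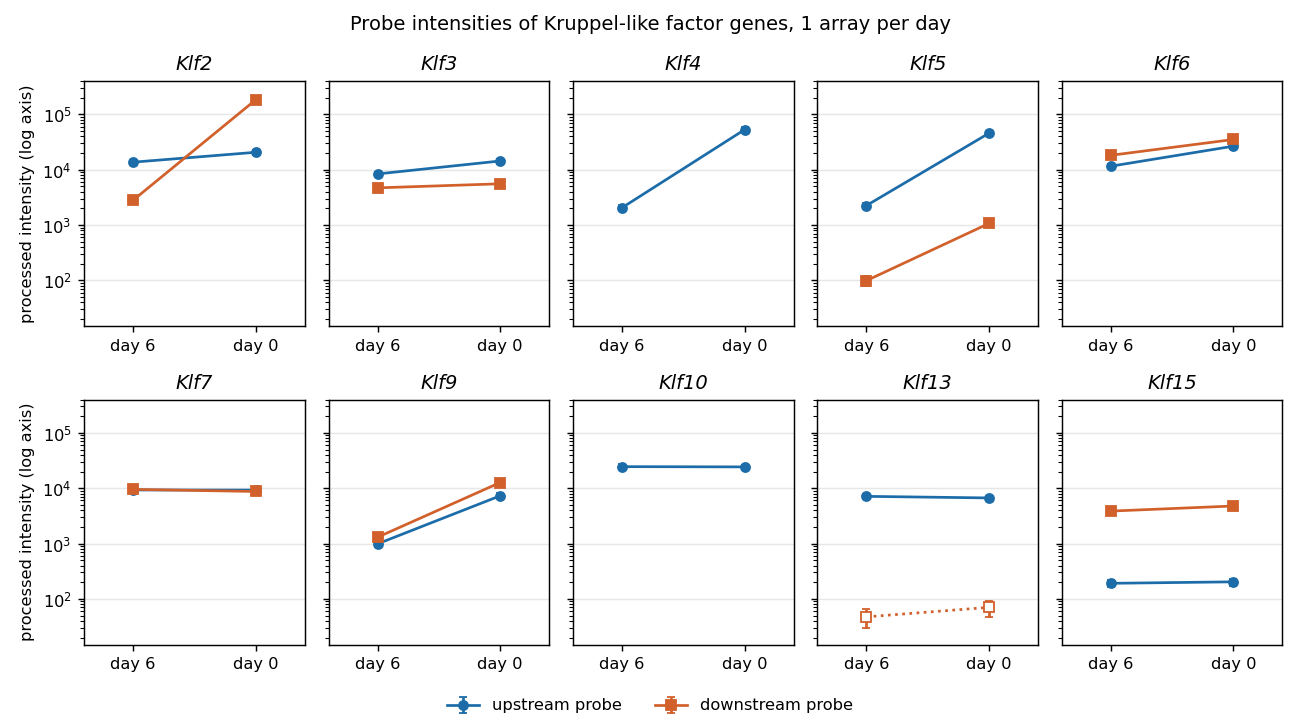
Processed intensity (log axis) of every member probe on the day 6 array (left in each panel) and the day 0 array (right), with bars for the software error. Circles mark the upstream or only probe, squares the downstream probe, and open symbols the Klf13 probe not well above background. The lines of Klf2's 2 probes cross, while both Klf7 probes and the Klf10 probe are nearly level.

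The trio of ES cell factors was lower on day 6 by all 5 of its probes, and by 2-fold or more at 4 of them. Klf4, a reprogramming factor and LIF target, read 2059 on day 6 and 52945 on day 0. Its single probe thus gave a log2 difference of -4.91 ± 0.20 (30.0-fold lower). The Klf5 mRNA probe, for a factor of ES cells and of intestinal and bladder epithelium, read 2256 on day 6 and 45684 on day 0, or 23.6-fold lower (log2 difference -4.56 ± 0.20). The Klf5 cDNA probe also fell, to 99.2 on day 6 against 1071 on day 0 (log2 difference -3.66 ± 0.33). Its day 6 value lay near 85.2, the lowest intensity of a probe well above background on that array, and its log2 difference was -2.70 with no background subtraction and -2.83 with another background correction (normexp). Both Klf5 probes were more than 4-fold lower in all 7 other settings.

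Klf2, which shares targets with Klf4 and Klf5 and is otherwise known from endothelium and lung, gave values that depended on the probe. The downstream probe shown above read 2823 on day 6, against 183597 on day 0. This was the largest difference of any member probe, -6.25 ± 0.20 log2 units or 75.9-fold lower, and 0.349% of tested probes had a difference as low or lower. The upstream probe had 13682 on day 6 and 20652 on day 0, or 1.76-fold lower (log2 difference -0.82 ± 0.20), which is under 2-fold. The probes were thus 5.43 ± 0.29 log2 units apart. Among 5510 genes with at least 2 probes measured on both arrays, 2 had a gap between probes of this size or more, Klf2 included, and the median gap was 0.36.

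The Klf2 probes also differ in composition, as the capitals show. The upstream probe has 78.3% G or C, at or above 99.97% of all gene probes, and the downstream probe has 43.3%, at or above 64.4%. Among 25 probes of at least 75% G or C that were measured on both arrays, 20.0% differed at least 2-fold, against 32.3% of the 23706 others. The median absolute log2 difference was 0.54 for these 25 probes and 0.63 for the others. Whether composition, or RNA other than Klf2, sets the value of either Klf2 probe was not tested. With the mean of both probes in place of the brightest, Klf2 stood at -3.53 log2 units (11.6-fold lower).

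**Figure D2:**
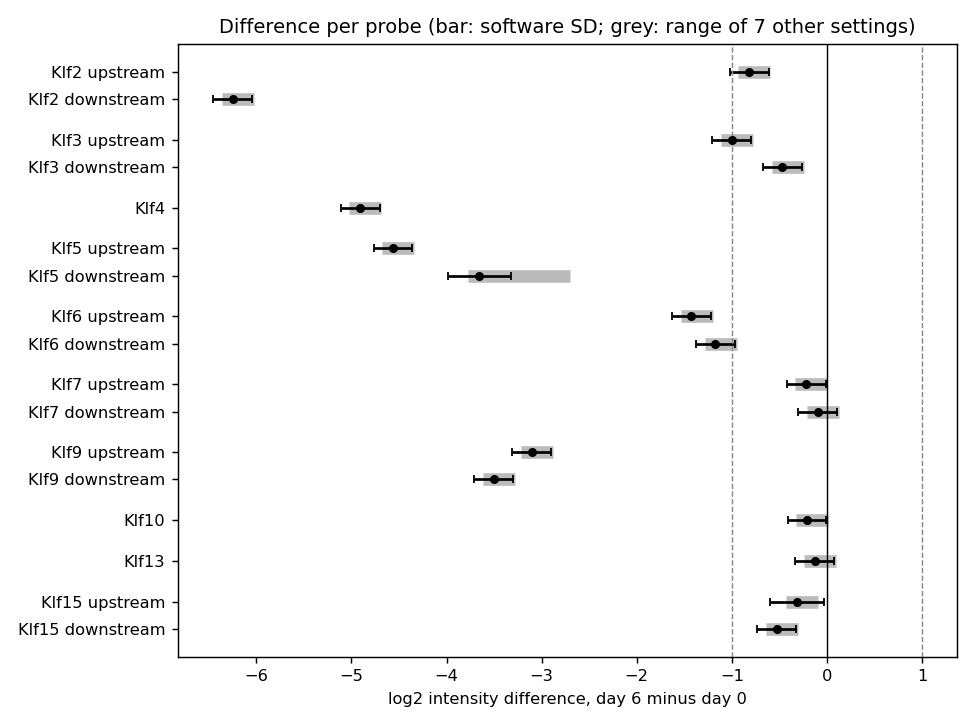
The log2 difference of each of the 17 measured member probes, day 6 minus day 0, with the software SD as a bar and the range over 7 other processing settings in grey. Dashed lines mark 2-fold. The downstream Klf2 probe is at -6.25 and the upstream at -0.82, and the longest grey range belongs to the Klf5 cDNA probe.

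The factors that recruit the Sin3a co-repressor did not move together. Klf9, a glucocorticoid- and thyroid hormone-responsive gene known in neurons as a brake on axon growth, was lower by both probes. Its downstream probe read 1304 on day 6 and 12673 on day 0 (log2 difference -3.50 ± 0.21, 11.3-fold lower), and its upstream probe 989 on day 6 and 7296 on day 0 (-3.11 ± 0.21, 8.61-fold lower). These probes were 0.40 ± 0.29 log2 units apart. Klf13, the close relative of Klf9 that regulates chemokine genes in T cells, had 7127 on day 6 and 6672 on day 0 by the mRNA probe (log2 difference -0.13 ± 0.20). The other Klf13 probe, for the cDNA AK002926, read 47.4 on day 6 and 70.4 on day 0, not well above background on either array, and gives no fold. Klf10, an early response gene of TGF-beta, read 24518 on day 6 and 24271 on day 0 (log2 difference -0.21 ± 0.20). For Klf10 and Klf13 the difference was within about its own software SD.

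The remaining Sin3a-binding members of the family were outside the 10 genes. Klf11, a second TGF-beta-induced factor, was higher on day 6 by its brighter probe, with 1655 on day 6 and 515 on day 0 (log2 difference 1.46 ± 0.21), while its other probe gave 0.50 ± 0.24. Klf16, a widely expressed repressor, had 1244 on day 6 and 5554 on day 0, or 5.21-fold lower. Klf14 had 249 on day 6 and 161 on day 0 (log2 difference 0.41 ± 0.32). Within this set of close relatives, Klf9 and Klf16 were thus lower, Klf11 higher by its brighter probe, and Klf10, Klf13 and Klf14 within 2-fold.

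Klf3, the CtBP-recruiting repressor known from erythroid and fat cells, lay at the 2-fold line. The upstream probe, at chr5:64177140-64177720 on the plus strand, had 8393 on day 6 and 14379 on day 0, 2.0-fold lower (log2 difference -1.0 ± 0.20). The downstream probe at chr5:64184115-64184174 had 4700 on day 6 and 5566 on day 0 (log2 difference -0.47 ± 0.20). Klf3 came under 2-fold in 7 of the 11 other settings that gave a gene value, so its count among the 6 lower genes rests on the choice of setting. Of the other CtBP-binding relatives, Klf8 was 9.45-fold lower by the probe that could be measured (864 on day 6 and 6995 on day 0). Klf12 was within 2-fold by both probes well above background on both arrays (-0.09 ± 0.21 and -0.65 ± 0.21).

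Klf6 and Klf7 are close relatives, the first widely expressed and induced by injury and growth signals, the second needed for axon growth in developing neurons. Klf6 was lower on day 6 by both probes. The upstream one, at chr13:5752473-5752532 on the plus strand, had 11577 on day 6 and 26620 on day 0 (log2 difference -1.42 ± 0.20). By the downstream one, at chr13:5755138-5755197, the values were 18217 on day 6 and 35164 on day 0 (-1.17 ± 0.20, 2.25-fold lower). That brighter probe came under 2-fold with no scaling (-0.95), with quantile normalization (-0.95) and in the authors' deposited table (-0.95). Klf7 had 9291 on day 6 and 9257 on day 0 by the mRNA probe (chr1:64319432-64319491, minus strand), and 9521 on day 6 and 8725 on day 0 by a probe for the cDNA AK086122 that lies 45146 bases downstream. These gave log2 differences of -0.22 ± 0.20 and -0.10 ± 0.20, so the neuronal factor was within 2-fold by both probes, while 6 of 7 neuronal marker genes were higher by 2-fold or more.

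Klf15, a glucocorticoid-induced and circadian regulator of amino acid and fat metabolism, was within 2-fold by both probes. The downstream probe, at chr6:90553698-90553757 on the plus strand, had 3861 on day 6 and 4771 on day 0 (log2 difference -0.53 ± 0.20). Its upstream probe at chr6:90552882-90552941 was dim, with 191 on day 6 and 203 on day 0 (-0.31 ± 0.28). The Klf10 probe lies on the minus strand at chr15:38405475-38405534. Without scaling between the arrays, the log2 differences of both Klf7 probes, the Klf10 probe and the Klf13 mRNA probe were just above 0 (0.01 to 0.13), and the other 13 measured probes stayed below 0 in all 7 settings.

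**Figure D3:**
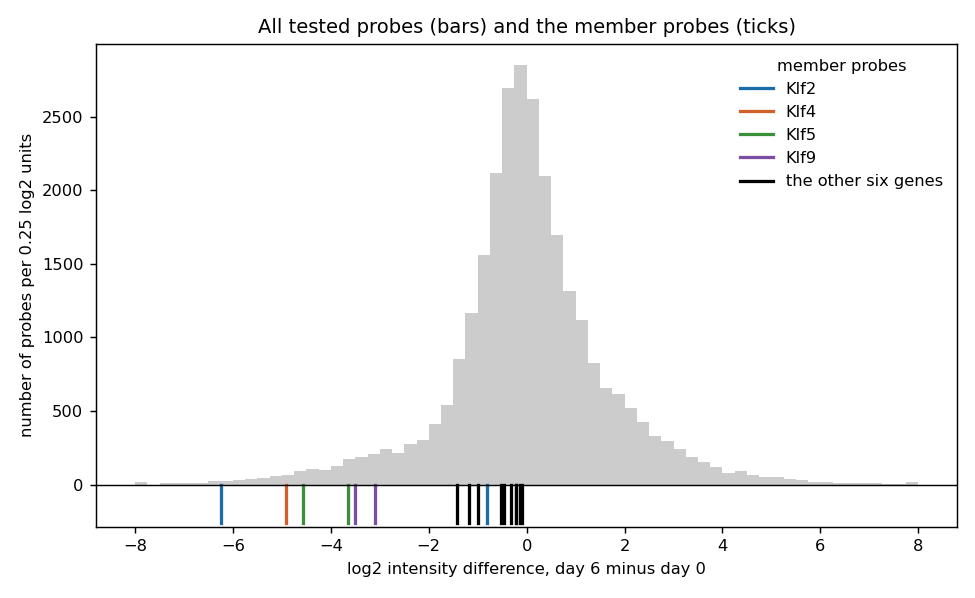
Number of probes per 0.25 log2 units of difference, day 6 minus day 0, for all 28378 tested probes (grey bars, measured values, with values past 8 units placed at the ends), and the 17 member probes as ticks below the axis. Of the ticks, 6 stand at or below -3.11 and the other 11 lie between -1.42 and -0.10.

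Apart from those already given, 2 further Klf genes and 8 Sp genes, the nearest relatives, were represented on the array. Klf1, the erythroid factor, had 395 on day 6 and 908 on day 0 (2.68-fold lower), and Klf17, a factor of germ cells and early embryos, was not well above background on either array. Sp5, a Wnt target, had 4644 on day 6 and 27122 on day 0 (6.82-fold lower). Sp6 was 4.36-fold lower by its brighter probe and Sp2 2.95-fold lower. Sp8, which is expressed in the developing forebrain, was 5.61-fold higher, with 4145 on day 6 and 632 on day 0. Sp4, a neuronal factor, was 2.83-fold higher, and its second probe gave 2.70-fold. The broadly expressed Sp1 and Sp3 were within 2-fold (log2 differences -0.45 ± 0.20 and -0.10 ± 0.20 by the brightest probe). Sp7, well above background on day 6 only, had 118 on day 6 and 87.2 on day 0, where only a bound is known and it gave no fold above 1. In all, 14 of these Klf and Sp genes outside the 10 were measured, and their median log2 difference was -0.28. Of the 14, 6 were lower by 2-fold or more and 3 higher, where 20.1% of all genes were lower and 17.8% higher.

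Genes upstream of and around the family were counted by the same rule, against the background of 20.1% lower and 17.8% higher. The lists were drawn up with earlier results of these arrays known. In the LIF to STAT3 list, 8 of 11 measured genes were lower by 2-fold or more and 1 higher, and the median was -1.30. Bcl3 (147-fold lower), the AP-1 gene Junb (6.67-fold lower) and the feedback inhibitor Socs3 (5.01-fold lower, 17378 on day 6 and 74595 on day 0) were the lowest. Stat3 itself was 3.48-fold lower (9001 on day 6 and 26829 on day 0), and the receptor genes Lifr and Il6st were 2.46-fold and 2.14-fold lower, with the Lifr probes between -1.30 and -0.40 log2 units. The kinase gene Jak2 was the exception, at 4.89-fold higher. Among transcription factors that act with the trio in naive ES cells, 10 of 11 were lower and 0 higher, with a median of -6.05. The lowest were Pou5f1 (161-fold), Esrrb (90.3-fold) and Tfcp2l1 (82.8-fold). The remaining factor, Sox2, named here after its value was seen, had a log2 difference of -0.43 ± 0.20.

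Genes of the ERK5 and MEF2 route, which induces Klf2 and Klf4 in endothelium, were read against 20.1% of all genes lower and 17.8% higher. Of 7 genes, by the brightest probe, 0 were lower by 2-fold or more and 1 was higher, and the median was 0.52. Mef2d, named here after its values were seen, was at 0.07 by that probe, while another of its probes had a measured log2 difference of -1.14. The higher gene was Mef2c (4.12-fold higher, 930 on day 6 and 193 on day 0). The immediate-early list, which holds genes induced within minutes by serum and growth factors as Klf2, Klf4, Klf6 and Klf10 are, had 8 of 15 lower and 1 higher, with a median of -1.08. Myc was 9.0-fold, Junb 6.67-fold and Egr1 6.20-fold lower, and Jun 2.77-fold higher. Junb stands in this list and the LIF list.

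Of 11 co-regulator genes, 2 were lower by 2-fold or more and 0 higher, where 20.1% of all genes were lower and 17.8% higher. The lower genes of the list were Ctbp2 (3.42-fold lower), the Klf3 partner, and Kat2b (2.61-fold lower), an acetyltransferase. Another Kat2b probe had a measured log2 difference of -0.82, under 2-fold. Hdac1 and Hdac2 had log2 differences of -0.98 ± 0.20 and 0.97 ± 0.20, just inside 2-fold on either side, though a second Hdac2 probe gave 1.78, and are named here after their values were seen. Of 6 ubiquitin ligase genes with Klf substrates, 0 were lower and 2 higher (Siah1a 2.64-fold and Vhl 2.60-fold). TGF-beta and Smad genes had 3 of 9 lower and 3 higher. Tgfb1, Smad7 and Tgfbr2 were 9.56-fold, 8.61-fold and 2.25-fold lower, and Tgfbr1, Smad3 and Tgfb2 3.97-fold, 3.96-fold and 2.99-fold higher. For Smad3, another probe had a measured log2 difference of 0.84, under 2-fold. Among 7 measured glucocorticoid and thyroid hormone genes, 3 were lower and 2 higher. Sgk1, a glucocorticoid- and serum-induced kinase, was 43.2-fold lower (3843 on day 6 and 142178 on day 0), while Tsc22d3, a classical glucocorticoid target, was 20.1-fold higher (12248 on day 6 and 521 on day 0). The receptor genes Nr3c1 (glucocorticoid) and Thra (thyroid hormone) were 3.42-fold lower and 2.22-fold higher, and Fkbp5, a glucocorticoid target, was 2.03-fold lower. Another Fkbp5 probe had a measured log2 difference of -0.44, under 2-fold.

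**Figure D4:**
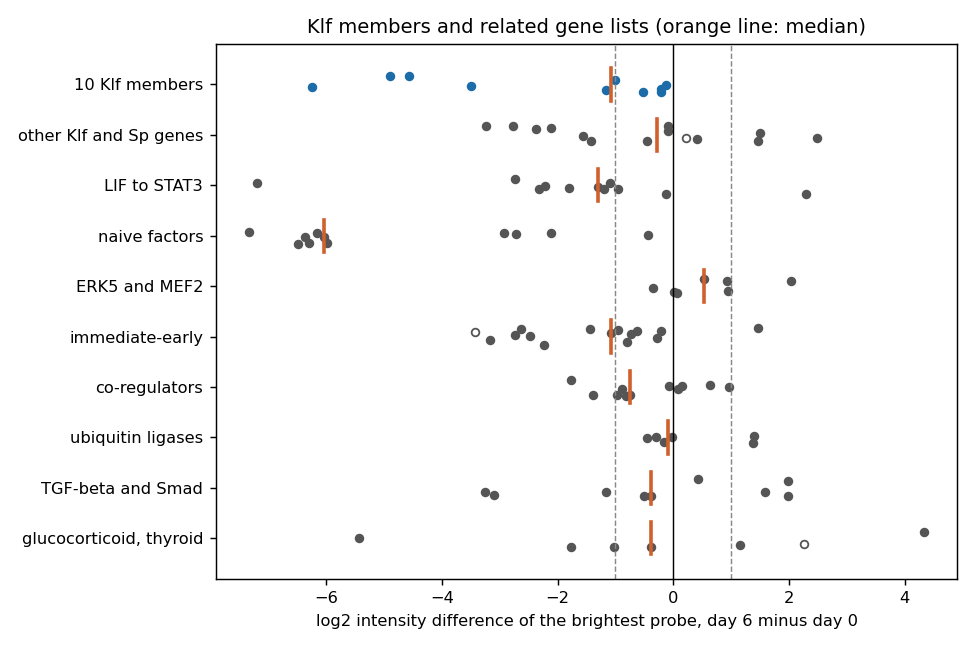
The log2 difference of each gene's brightest probe, day 6 minus day 0, for the 10 Klf members (blue) and 9 related gene lists (grey), with medians in orange and dashed lines at 2-fold. Open circles are measured values of genes well above background on 1 array only. The naive factor list has the lowest median, -6.05, and the ERK5 and MEF2 list the highest, 0.52.

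Klf2, Klf4, Klf6 and Klf9 are also expressed in fibroblasts or endothelium, so markers of such cells were read beside them. Of 10 feeder fibroblast markers, 7 were at least 2-fold lower on day 6 and 0 higher. Their summed intensity was 292943 on day 6 and 354054 on day 0, of which 249056 on day 6 and 176373 on day 0 were Vim, an intermediate filament gene that neural progenitors also express. Col1a1 had 2700 on day 6 and 46224 on day 0, and Lox was the only fibroblast marker not well above background on day 6. Vim and Lox were named after their values were seen. Of 5 measured endothelial markers, 3 were lower and 0 higher, with a summed intensity of 1148 on day 6 and 3064 on day 0. Pecam1 was well above background on day 0 only (30.7 on day 6 and 700 on day 0). The part of feeder or endothelial RNA in the Klf differences was not tested.

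Promoter sequences from RefSeq (GRCm38.p6) matched 8 of the 10 genes, all but Klf5 and Klf10. The 250 bases before the annotated start are shown for Klf2, Klf4 and Klf9. These genes, like the unmatched Klf5, were at least 4-fold lower by their brightest probe. Capitals mark GGGCGG (the GC box), CACCC (the Klf box) and the MEF2 site pattern (CTA, any 4 bases, TAG), on either strand. Overlapping matches run together. The windows are chr8:72318812-72319061 (plus strand), chr4:55532476-55532725 (minus strand) and chr19:23140976-23141225 (plus strand).
Klf2 promoter: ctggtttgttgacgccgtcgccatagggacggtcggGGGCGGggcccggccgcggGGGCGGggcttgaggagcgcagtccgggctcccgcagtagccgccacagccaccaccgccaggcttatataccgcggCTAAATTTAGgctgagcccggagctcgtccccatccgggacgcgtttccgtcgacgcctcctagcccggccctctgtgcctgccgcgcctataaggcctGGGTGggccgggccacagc
Klf4 promoter: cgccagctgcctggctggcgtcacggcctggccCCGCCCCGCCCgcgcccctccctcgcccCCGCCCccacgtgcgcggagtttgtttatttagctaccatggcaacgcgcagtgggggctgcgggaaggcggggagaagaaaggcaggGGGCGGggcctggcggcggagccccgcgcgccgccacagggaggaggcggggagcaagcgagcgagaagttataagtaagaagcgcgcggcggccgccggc
Klf9 promoter: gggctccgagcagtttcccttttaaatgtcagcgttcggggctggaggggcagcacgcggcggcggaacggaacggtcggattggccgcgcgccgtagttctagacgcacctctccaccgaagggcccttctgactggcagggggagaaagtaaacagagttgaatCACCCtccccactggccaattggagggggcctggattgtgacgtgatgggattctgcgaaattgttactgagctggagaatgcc

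GGGCGG was present in 7 of the 8 promoters and in 32.7% of all 32851 promoter windows of the same length, with 4 sites for Klf4, 2 for Klf2, 6 for Klf3 and 0 for Klf9. The 8 promoters held 59.2% to 78.4% G or C. All windows were not matched to them for this content, so the shares are not a like comparison. CACCC was present in 6 of the 8 and in 52.0% of all windows. The MEF2 pattern was present for Klf2 alone of the 8, and in 3.20% of all windows. The STAT pattern TTCNNNGAA was found for Klf9 alone of the 8 (7.02% of all windows), and TATAAA for 0 of the 8 (12.4% of all). The motifs were chosen from knowledge of the family and after the sequences were seen. A match describes letters only, and a missing match says nothing of the factor.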

How the data were processed

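Total RNA of 2 samples was labelled with Cy3 and read on 1-colour arrays, per the labels. Per the file headers, intensities were extracted with Feature Extraction 9.5.3.1 on design 014868, with background subtraction and detrending, and dim spots carry a surrogate value. The authors deposited these scanner files and a table on a log2 scale, with equal distributions in both columns (median 8.54). The sources used here do not say how that table was made. Its differences correlated at 0.989 with those from the scanner files across probes, which settled its direction. A correlation does not settle scale. As an example of size, the Klf4 probe had a difference of -4.79 in that table and -4.91 in the main setting.

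Control and outlier spots were left out (216 spots on day 6 and 186 on day 0), spots of a probe were averaged as log2 intensities, and the 75th percentile was subtracted (intensity 4388 on day 6 and 3758 on day 0). Probes well above background on at least 1 array were tested. Genes were named through RefSeq accessions (22951 probes), current symbols (6659) or unique older symbols (3109), and 8455 probes had no symbol. A gene took its probe of highest mean log2 intensity. Counts set a dim array at its bound, the higher of its own value and the lowest value well above background. With 1 array a group there was no test, and precision is limited by their number. The median software SD of a difference was 0.21 log2 units. By the names of the deposited files the arrays share 1 slide, where array position cannot be told apart from group.

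The 10 members and the lists were chosen with earlier results of these data known. All members were named by every probe. From the lists, the genes named were up to 3 in each direction with the largest difference of at least 2-fold among those well above background on both arrays, all other Klf and Sp genes, the LIF receptor, STAT3 and Socs3 genes, and the markers Pou5f1, Nes, Col1a1 and Pecam1. Other genes are said in the text to have been named after their values were seen. The calculation was tested on simulated arrays. Alternatives used normexp (offset 50, limma 3.58.1 in R 4.3.3), other scalings, filters and the deposited table.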

Additional observations from a re-analysis of the deposited data

How the results depend on the processing

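No paired analysis was possible because each group had 1 array, and no replicate could be left out. Of 219 recomputed summary values, 8 moved beyond their limit. Falls of the lower member genes from 6 to 4, and of all lower genes from 3002 to 2396, counted as within that limit. No member difference of 2-fold or more changed sign, but 4 smaller ones (both Klf7 probes, Klf10 and Klf13) were above 0 without scaling. Without scaling between arrays, the median of the member probes was -0.78, against -1.0 in the main setting. That setting shifts every probe alike and moved the median of all genes to 0.11, against -0.12, while median scaling moved it to -0.23. The count of all genes at least 2-fold apart was 2396 lower and 3282 higher without scaling, and 2760 lower and 2884 higher with the percentile over probes bright on both arrays, against 3002 lower and 2662 higher. The number of member genes at least 2-fold lower was 6 in the main setting and 4 to 6 in the others. Klf2, Klf4, Klf5 and Klf9 were counted in each, and Klf3 and Klf6 were not in the lowest counts. For Klf2 this rests on the downstream probe. Its upstream probe was under 2-fold in the main setting (-0.82) and in the 7 others (-0.93 to -0.59). Of the 119 recomputed member differences, 19 moved by more than the software SD, 15 of them without scaling. The ERK5 and MEF2 list had 3 genes at least 2-fold higher without scaling and with the percentile over probes bright on both arrays, against 1. The co-regulator list had 4 lower with median scaling, against 2, and 1 higher with no scaling, that percentile, quantile normalization or the deposited table, against 0. Smaller shifts were seen in other lists: LIF to STAT3 had 6 to 9 lower (6 without scaling), against 8, immediate-early genes 7 to 9, against 8, glucocorticoid and thyroid genes 2 in 4 settings, against 3, and TGF-beta genes 2 without scaling, against 3. The cause was not tested for the list counts. The planned bound for dim arrays coincides with the main counts. Setting a dim array at its measured value, and recounting the lists under each setting, were added after seeing the data. Signal over background limits the dim Klf5, Klf13 and Klf15 probes.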

Other observations

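Among markers of other cell types, Lyz2, a lysozyme gene of macrophages, was by its brightest probe well above background on day 0 only (40.3 on day 6 and 60529 on day 0) and at least 830-fold lower on day 6, while its other probe had a measured log2 difference of -4.01. Ptprc, the pan-leukocyte gene, was also well above background on day 0 only (19.0 on day 6 and 279 on day 0). The embryonic globin gene Hbb-bh1 was well above background on day 6 only (2018 on day 6 and 33.4 on day 0), at least 16.9-fold higher, while Klf1, the factor known to drive globin genes in red cells, was 2.68-fold lower by a probe of 395 on day 6 and 908 on day 0. These genes were named after their values were seen. Of 5 measured endoderm markers, 2 were at least 2-fold higher and 1 lower, and of 4 measured mesoderm markers 1 was higher and 1 lower.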
